A study of Mus musculus with 14 samples.

Results

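Glucose moves through the tubule cells of the kidney, and is made in them, with the products of the 10 genes described here. Slc5a2, Slc5a1, Slc2a2 and Slc2a1 encode glucose transporters. Pcx, Pck1, Pck2, Fbp1, G6pc and Slc37a4 encode enzymes, and a transporter that serves them, of gluconeogenesis, the synthesis of glucose from smaller molecules. The genes were chosen by symbol, and all 10 were found, each under 1 identifier, among the 47729 genes listed for every library. All 10 passed the filter on low counts, which kept 17926 genes.

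Messenger RNA of whole mouse kidney was sequenced in 14 libraries, to ask what 7 days of unilateral ureteral obstruction (UUO) and a Smoc2 transgene do to the kidney. UUO is the surgical closure of a single ureter, and it makes the kidney above it fibrotic. The groups were wild-type kidney after UUO (WT UUO, 4 libraries), untreated wild-type kidney (WT normal, 3 libraries), kidney labelled SMOC2 transgenic after UUO (SMOC2 UUO, 4 libraries, numbered 1 to 4) and untreated kidney labelled SMOC2 transgenic (SMOC2 normal, 3 libraries, numbered 1, 3 and 4). SMOC2 is a secreted calcium-binding protein of the extracellular matrix. The promoter of the transgene, the strain and the age of the mice are not given by these group labels. A treatment protocol attached to the samples speaks instead of folic acid injected into male Balb/c mice, and the groups were taken from the genotype and treatment labels. Nothing says that each library came from an animal of its own, so p-values measure the spread between libraries, which may be technical.

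Total counts ran from 19483994 to 30033405 per library. Levels are in CPM, each count divided by its library's size after scaling for composition, and comparisons are edgeR quasi-likelihood tests with p-values adjusted over all 17926 genes. A gene is said to have risen or fallen where that adjusted p is under 0.05. Smoc2 itself averaged 96.1 ± 18.5 CPM in SMOC2 UUO and 147 ± 11.4 CPM in WT UUO (SD, n = 4 each). It averaged 21.8 ± 9.66 CPM in SMOC2 normal and 25.2 ± 16.1 CPM in WT normal (SD, n = 3 each). Neither genotype difference passed the test (edgeR adjusted p = 0.389 in UUO and 0.850 in normal kidney), so the libraries labelled SMOC2 held no detected excess of Smoc2 mRNA. All 10 proximal tubule markers were above 0 in each of the 4 groups. So were all 6 hepatocyte markers, so being above 0 does not check the tissue label.

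As background, the glomerulus filters glucose from blood, and proximal tubule cells take nearly all of it back. Sodium-glucose cotransporters of the SLC5 family bring it in at the brush border, and facilitative carriers of the SLC2 family let it out on the blood side. Proximal tubule cells also make glucose, from lactate, glutamine and glycerol, and share with hepatocytes the enzymes for that path. Pyruvate carboxylase, phosphoenolpyruvate carboxykinase, fructose bisphosphatase and glucose-6-phosphatase catalyse the steps that bypass the irreversible reactions of glycolysis.

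The bases upstream of 4 transcription starts are shown because these genes bracket the response described below: G6pc and Pck1 had the largest falls, Slc2a1 the smallest, and Pck2 alone rose. RefSeq promoters (GRCm38.p6, the assembly of mm10) were matched for 9 of the 10 genes, all but Slc5a2. Each line gives the 250 bases before the start, 5′ to 3′. Capitals mark the letters of a searched motif, on either strand. Gene positions given further on are those of GENCODE, whose first base lies inside the printed stretch for G6pc, Pck1 and Slc2a1.
G6pc, chr11:101367466-101367715, plus strand: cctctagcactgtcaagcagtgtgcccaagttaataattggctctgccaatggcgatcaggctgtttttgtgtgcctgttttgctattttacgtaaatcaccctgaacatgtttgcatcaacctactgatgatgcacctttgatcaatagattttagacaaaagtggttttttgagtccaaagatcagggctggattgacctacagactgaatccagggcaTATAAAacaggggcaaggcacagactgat
Pck1, chr2:173152823-173153072, plus strand: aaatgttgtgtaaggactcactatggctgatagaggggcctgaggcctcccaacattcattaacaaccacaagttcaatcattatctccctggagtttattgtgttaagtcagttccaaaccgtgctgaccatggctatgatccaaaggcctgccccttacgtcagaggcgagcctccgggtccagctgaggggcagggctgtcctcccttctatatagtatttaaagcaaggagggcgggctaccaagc
Slc2a1, chr4:119108495-119108744, plus strand: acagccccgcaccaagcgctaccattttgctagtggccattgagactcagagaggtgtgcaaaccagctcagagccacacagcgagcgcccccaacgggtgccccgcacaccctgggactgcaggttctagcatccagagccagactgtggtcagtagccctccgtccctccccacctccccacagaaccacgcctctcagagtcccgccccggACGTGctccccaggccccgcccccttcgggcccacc
Pck2, chr14:55540016-55540265, plus strand: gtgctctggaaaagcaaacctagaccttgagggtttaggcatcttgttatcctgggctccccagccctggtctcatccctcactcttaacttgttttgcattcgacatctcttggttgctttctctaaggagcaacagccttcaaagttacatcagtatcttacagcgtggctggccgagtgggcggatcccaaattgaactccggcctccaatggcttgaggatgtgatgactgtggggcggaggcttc
The search covered these bases and the 50 that follow the start, on both strands, for 5 strings of letters, with positions counted from the start. The TATA box letters TATAAA, in 13.6% of 32851 promoters of the same length, lay at -29 to -24 of G6pc, at 29 to 34 of Slc2a1, past the printed bases, and near the third listed start of Slc37a4. The hypoxia response core ACGTG, in 19.6% of promoters, lay at -36 to -32 of Slc2a1 and in the promoters of Slc5a1 and Pcx. Each of those promoters held a match that overlapped itself on the opposite strand as CACGTG. Pcx also held a match on the plus strand alone, at -140 to -136. An HNF4 site (CAAAGTCCA, in 0.475% of promoters), a full cAMP response element (TGACGTCA, 1.79%) and a forkhead site (GTAAACA, 3.65%) matched none of the 9. Pck1 and Pck2 held none of the 5 strings. Such matches describe letters and not binding.

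In normal kidney the 10 genes spanned a wide range of levels. On a scale of CPM per kilobase of exon, which allows levels of different genes to be compared, Pck1 was highest in WT normal at 1278 ± 291, followed by Fbp1 at 714 ± 48.2 and G6pc at 231 ± 15.7 (SD, n = 3). Pck1 held rank 20 and Fbp1 rank 44 of 17867 genes in that group. Slc5a2, at 120.5 ± 11 CPM per kilobase, led the transporters. Pcx (91.0 ± 15.7) and Slc37a4 (87.5 ± 3.32) did not differ beyond their spread. Slc2a2 (33.2 ± 7.77) overlapped both Slc5a1 (36.6 ± 2.53), above it in this order, and Slc2a1 (28.8 ± 2.30), below it, which did not overlap each other. Pck2 was lowest, at 2.79 ± 0.0840. SMOC2 normal kidney began with the same 5 genes, Pck1, Fbp1, G6pc, Slc5a2 and Pcx, at 1217 ± 128, 781 ± 36.8, 258 ± 45.1, 127 ± 6.82 and 124 ± 3.35 CPM per kilobase, of which the last 2 were within their spread. It ended with Pck2 at 3.01 ± 0.234.

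After obstruction 9 of the 10 genes fell and 1, Pck2, rose, in each genotype. Over all genes tested, 61.1% were called in the WT comparison (31.3% higher and 29.8% lower in UUO) and 62.8% in the SMOC2 comparison (32.5% higher and 30.4% lower), so a call by itself was common. All UUO libraries lay below all normal ones for the 9 genes, as for 29.5% of all genes in WT and 30.1% in SMOC2 kidney, and above them for Pck2, as for 31.3% and 32.6% of all genes. The median log2 fold change of the 10 genes was -2.23 in WT and -2.16 in SMOC2 kidney, beside 0.05 and 0.04 over all genes. With library totals in place of composition scaling, the median over all genes moved to 0.52 in WT and 0.54 in SMOC2 kidney. The calls then split into 10052 higher and 2716 lower in WT and 10382 higher and 2804 lower in SMOC2 kidney, against 5603 higher and 5347 lower, and 5817 higher and 5447 lower, with composition scaling. The calls of Slc2a1 in both genotypes and of Slc5a1 in SMOC2 kidney were lost on that scale, and those of the other genes held.

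**Figure D1:**
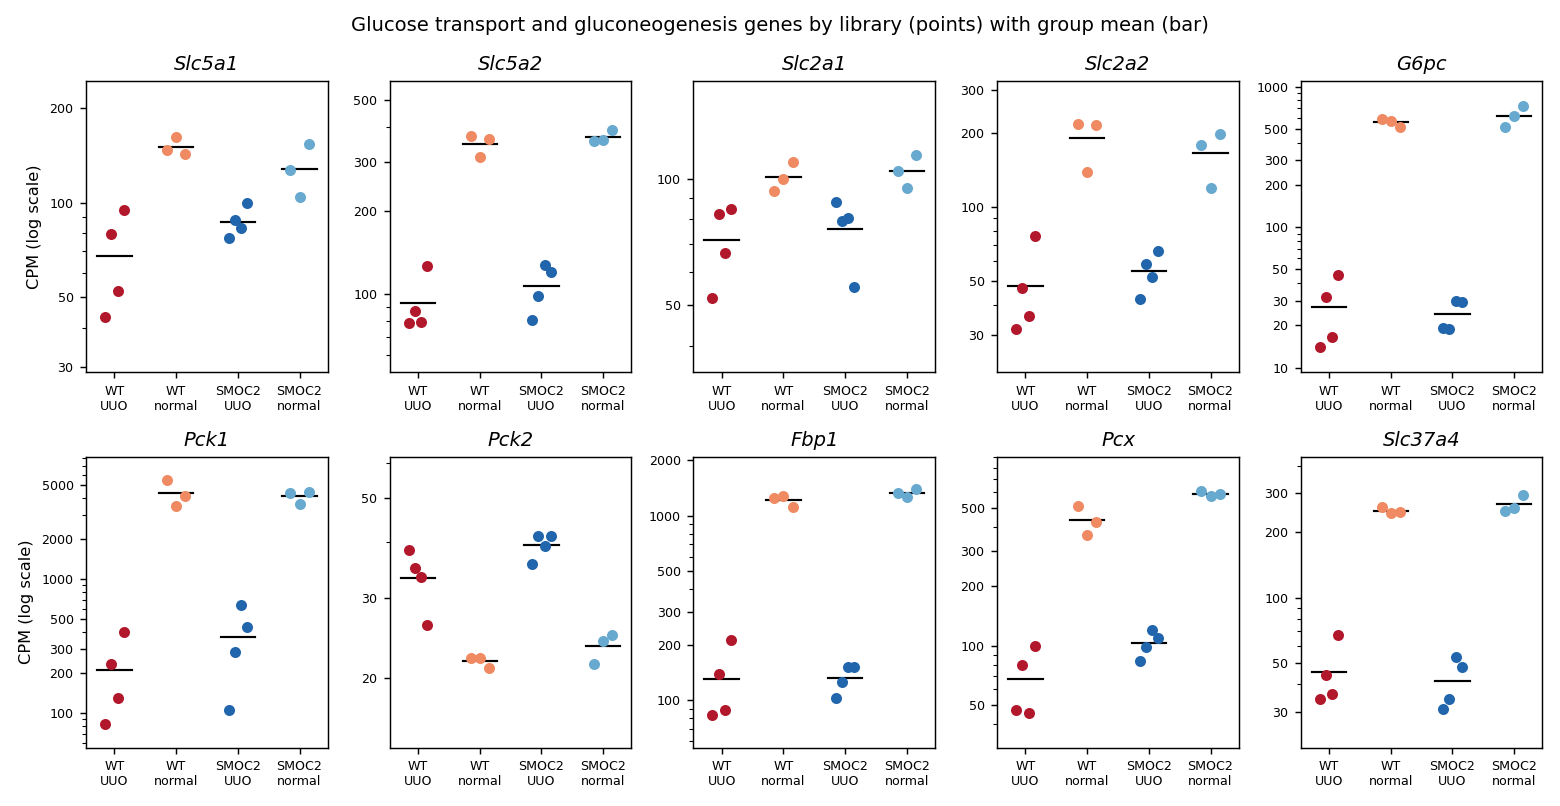
Level of each of the 10 genes in every library, in CPM on a log axis, by group; points are libraries and bars are group means. In 9 panels the UUO points lie below the normal points of the same genotype, a gap that Slc2a1 in both genotypes and Slc5a1 in SMOC2 kidney do not keep on the scale of library totals, and in the Pck2 panel they lie above.

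Slc5a2 (chr7:128265657-128272430, plus strand) encodes SGLT2, the high-capacity cotransporter of the early proximal tubule. It stood at 78.3, 86.6, 79.5 and 126.0 CPM in WT UUO, against 373, 313 and 361 CPM in WT normal kidney. SMOC2 UUO kidney had 80.8, 98.1, 127.0 and 120.2 CPM, and SMOC2 normal kidney had 356, 359 and 392 CPM. Every UUO library was well below every normal library. Slc5a2 fell to 26.5% of the normal level in WT (log2 fold change -1.91, SE 0.17, edgeR adjusted p = 5.09e-07) and to 28.9% in SMOC2 kidney (-1.79, SE 0.17, adjusted p = 7.9e-07 by the same test). Its exons share 597 bases, 20.6% of their length, with BC017158 on the opposite strand, and the strand setting of the counting is not given in the sources used here. BC017158 was at 29.3 ± 2.32 CPM in WT UUO and 32.7 ± 0.916 CPM in WT normal kidney, and at 33.1 ± 1.19 CPM in SMOC2 UUO and 39.4 ± 1.96 CPM in SMOC2 normal kidney.

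Slc5a1 (chr5:33104219-33162870, plus strand) encodes SGLT1, the high-affinity cotransporter of the later proximal tubule. WT UUO libraries held 43.5, 79.4, 52.6 and 94.4 CPM, against 146.5, 162 and 142 CPM in WT normal kidney. SMOC2 UUO libraries held 77.2, 88.3, 82.8 and 100 CPM, against 127, 104 and 154 CPM in SMOC2 normal kidney. The groups did not overlap, though the highest SMOC2 UUO library came close to the lowest SMOC2 normal one. Slc5a1 fell to 44.9% of normal in WT (log2 fold change -1.16, SE 0.21, edgeR adjusted p = 0.000322) and to 67.9% in SMOC2 kidney (-0.56, SE 0.21, edgeR adjusted p = 0.0347). The SMOC2 call was lost with library totals (-0.06, edgeR adjusted p = 0.802) and with upper-quartile scaling (-0.44, edgeR adjusted p = 0.0746). It was also lost without SMOC2 normal library 1 (edgeR adjusted p = 0.0677) or 4 (0.163), and without SMOC2 UUO library 1 (0.0820), 2 (0.0582) or 3 (0.0698).

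Slc2a2 (chr3:28697903-28731359, plus strand) encodes GLUT2, the carrier through which glucose leaves early proximal tubule cells. It was at 31.9, 46.6, 35.9 and 76.2 CPM in WT UUO, against 218, 139.5 and 216 CPM in WT normal kidney. In SMOC2 kidney it was at 42.2, 58.7, 51.6 and 66.1 CPM in UUO, against 179.7, 119.7 and 199 CPM in normal libraries. UUO and normal libraries were apart, with library 2 of WT normal and library 3 of SMOC2 normal the lowest of the untreated ones. The fall was to 24.9% of normal in WT (log2 fold change -2.01, SE 0.28, edgeR adjusted p = 2.42e-05) and to 32.9% in SMOC2 kidney (-1.60, SE 0.28, edgeR adjusted p = 0.00016).

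Slc2a1 (chr4:119108711-119137983, plus strand) encodes GLUT1, a carrier that most cell types use to take up glucose. WT UUO libraries had 52.0, 82.5, 66.4 and 84.7 CPM, against 93.6, 99.7 and 109.6 CPM in WT normal kidney. SMOC2 UUO libraries had 88.0, 79.2, 80.8 and 55.1 CPM, against 104.3, 94.8 and 114 CPM in SMOC2 normal kidney. The gap between states was narrow, although no library crossed it. Slc2a1 fell to 70.7% of normal in WT (log2 fold change -0.50, SE 0.17, edgeR adjusted p = 0.0192) and to 72.7% in SMOC2 kidney (-0.46, SE 0.17, edgeR adjusted p = 0.0283). With library totals the difference was -0.04 in WT (edgeR adjusted p = 0.849) and turned to 0.04 in SMOC2 kidney (edgeR adjusted p = 0.824), so the direction of Slc2a1 rests on the composition scaling. Upper-quartile scaling gave -0.39 (edgeR adjusted p = 0.0504) and -0.34 (edgeR adjusted p = 0.0799). The WT call was lost without WT normal library 3 (edgeR adjusted p = 0.0701), and the SMOC2 call without SMOC2 normal library 1 (0.0617) or 4 (0.103) or SMOC2 UUO library 4 (0.0739).

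The first committed step of gluconeogenesis from lactate is catalysed in mitochondria by pyruvate carboxylase, the product of Pcx (chr19:4510472-4621752, plus strand), which turns pyruvate into oxaloacetate. Pcx was at 47.3, 79.7, 45.4 and 98.9 CPM in WT UUO, against 512, 364 and 422 CPM in WT normal kidney. It was at 83.7, 98.4, 119 and 108.6 CPM in SMOC2 UUO, against 605, 573 and 589 CPM in SMOC2 normal kidney. The states were far apart in both genotypes. Pcx fell to 15.7% of normal in WT (log2 fold change -2.67, SE 0.24, edgeR adjusted p = 4.07e-07) and to 17.4% in SMOC2 kidney (-2.52, SE 0.24, edgeR adjusted p = 5.59e-07).

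Pck1 (chr2:173153048-173159273, plus strand) encodes the cytosolic phosphoenolpyruvate carboxykinase, which makes phosphoenolpyruvate from oxaloacetate. WT UUO libraries had 82.8, 231, 130.3 and 402 CPM, against 5462, 3499 and 4182 CPM in WT normal kidney. SMOC2 UUO libraries had 105.3, 287, 642 and 436 CPM, against 4396, 3668 and 4461 CPM in SMOC2 normal kidney. Pck1 varied more among obstructed libraries than any other of the 10 genes: the highest was 4.86 times the lowest in WT UUO and 6.1 times the lowest in SMOC2 UUO. Even so, all obstructed libraries lay far under all normal ones. The fall was to 4.83% of normal in WT (log2 fold change -4.37, SE 0.57, edgeR adjusted p = 1.42e-05) and to 8.81% in SMOC2 kidney (-3.51, SE 0.55, edgeR adjusted p = 7.25e-05). Its rank among 17867 genes by CPM per kilobase was 559 in WT UUO and 20 in WT normal kidney, and 289 in SMOC2 UUO and 25 in SMOC2 normal kidney.

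Pck2 (chr14:55540266-55551242, plus strand) encodes the mitochondrial isoenzyme of the same reaction. It was at 38.4, 35.0, 33.5 and 26.2 CPM in WT UUO, against 22.1, 22.1 and 21.0 CPM in WT normal kidney. It was at 35.8, 41.2, 39.3 and 41.2 CPM in SMOC2 UUO, against 21.4, 24.1 and 24.9 CPM in SMOC2 normal kidney. Each UUO library was above each normal library of its genotype. Pck2 rose to 153% of normal in WT (log2 fold change 0.61, SE 0.11, edgeR adjusted p = 0.000304) and to 167.5% in SMOC2 kidney (0.74, SE 0.11, edgeR adjusted p = 5.53e-05). WT UUO library 4, the highest of its group for the other 9 genes, was the lowest for Pck2.

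Fbp1 (chr13:62864753-62888282, minus strand) encodes the fructose-1,6-bisphosphatase of liver and kidney. WT UUO libraries had 83.2, 139.7, 89.0 and 214 CPM, against 1244, 1278 and 1122 CPM in WT normal kidney. SMOC2 UUO libraries had 103, 125.4, 151 and 151 CPM, against 1327, 1268 and 1393 CPM in SMOC2 normal kidney. No obstructed library came near a normal one. Fbp1 fell to 10.8% of normal in WT (log2 fold change -3.21, SE 0.27, edgeR adjusted p = 2.45e-07) and to 9.99% in SMOC2 kidney (-3.32, SE 0.27, edgeR adjusted p = 1.64e-07).

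The last step, the release of free glucose in the endoplasmic reticulum, needs a phosphatase and a carrier that brings glucose-6-phosphate to it. G6pc (chr11:101367561-101377903, plus strand) encodes the catalytic subunit of the phosphatase. It was at 13.9, 31.6, 16.4 and 45.8 CPM in WT UUO, against 590, 567 and 515.5 CPM in WT normal kidney. It was at 19.2, 18.8, 29.6 and 29.1 CPM in SMOC2 UUO, against 513, 623 and 731 CPM in SMOC2 normal kidney. Normal libraries were far above obstructed ones throughout. G6pc fell to 4.82% of normal in WT (log2 fold change -4.37, SE 0.35, edgeR adjusted p = 1.72e-07) and to 3.88% in SMOC2 kidney (-4.69, SE 0.36, edgeR adjusted p = 9.19e-08).

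Slc37a4 (chr9:44396852-44402968, plus strand) encodes the glucose-6-phosphate carrier of the endoplasmic reticulum. WT UUO libraries had 34.3, 44.1, 35.9 and 67.3 CPM, against 261, 243 and 246 CPM in WT normal kidney. SMOC2 UUO libraries had 30.7, 34.2, 53.3 and 48.1 CPM, against 250.4, 258 and 295 CPM in SMOC2 normal kidney. The states were apart in both genotypes. The carrier's mRNA fell to 18.2% of normal in WT (log2 fold change -2.46, SE 0.22, edgeR adjusted p = 5.06e-07) and to 15.5% in SMOC2 kidney (-2.69, SE 0.23, edgeR adjusted p = 2.14e-07). The difference between the fold changes of Slc37a4 and G6pc was not tested.

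**Figure D2:**
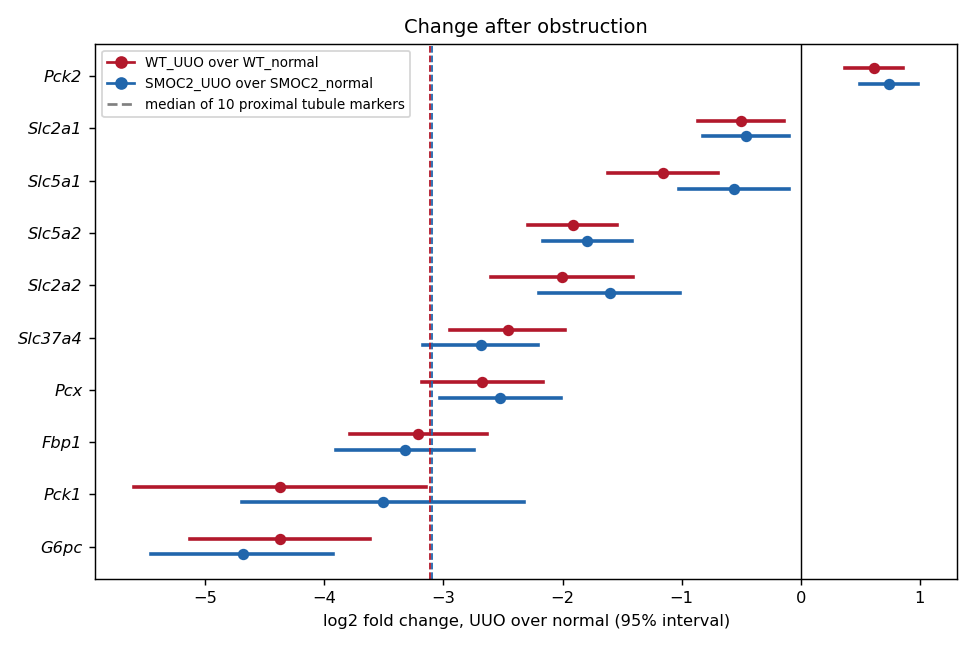
Log2 fold change of each of the 10 genes, UUO over normal, with its 95% interval, in wild-type (red) and SMOC2-labelled (blue) kidney; dashed lines mark the median of 10 proximal tubule markers. G6pc, Pck1 and Fbp1 lie at or beyond that median, from -4.69 to -3.21, and Pck2 alone is above 0, at 0.61 and 0.74; with library totals in place of composition scaling Slc2a1 sits at -0.04 and 0.04.

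Obstruction also reordered the genes. In WT UUO, Fbp1 (77.2 ± 35.5 CPM per kilobase) and Pck1 (61.7 ± 41.2) were first and did not differ beyond their spread, and Slc5a2 followed at 32.0 ± 7.79 (SD, n = 4). G6pc took place 8 of the 10 in WT UUO, at 11.1 ± 6.13 CPM per kilobase, and place 3 in WT normal kidney. Slc2a1 took place 4 in WT UUO, at 20.4 ± 4.36 CPM per kilobase, and place 9 in WT normal kidney, but in WT UUO it was within the spread of Slc5a1 (16.4 ± 5.74), Slc37a4 (15.9 ± 5.33) and Pcx (14.3 ± 5.48). In SMOC2 UUO G6pc was likewise at place 8 (10 ± 2.47) and Slc2a1 at place 4 (21.6 ± 4.09), against places 3 and 8 in SMOC2 normal kidney. Slc2a1, Pcx and Slc5a1 did not differ beyond their spread in SMOC2 UUO, with 21.6, 21.6 and 21.2 CPM per kilobase. Pck2 stayed last in both, at 4.26 ± 0.660 in WT UUO and 5.04 ± 0.327 in SMOC2 UUO. That place rests on the length scaling. In CPM the mean of Pck2 was above that of G6pc in both obstructed groups. The means were 33.3 ± 5.15 against 26.9 ± 14.8 CPM in WT UUO, and 39.4 ± 2.55 against 24.1 ± 5.97 CPM in SMOC2 UUO.

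Related genes that serve the same step shifted unequally, which ratios within a library show free of library scaling. These ratios are per kilobase of exon and are described without a test. The ratio of Slc5a2 to Slc5a1 was 2.0 in WT UUO and 3.28 in WT normal kidney (geometric means; log2 1.0 ± 0.30, n = 4, and 1.72 ± 0.23, n = 3). In SMOC2 kidney it was 1.72 in UUO and 4.12 in normal libraries (log2 0.78 ± 0.24, n = 4, and 2.04 ± 0.22, n = 3). SGLT2 mRNA thus outnumbered SGLT1 mRNA in every library, by less after obstruction. The ratio of Slc2a2 to Slc2a1 was 0.390 in WT UUO and 1.13 in WT normal kidney (log2 -1.36 ± 0.33 and 0.18 ± 0.37). It was 0.440 in SMOC2 UUO and 0.951 in SMOC2 normal kidney (log2 -1.18 ± 0.55 and -0.07 ± 0.26). Per kilobase, GLUT1 mRNA was the more abundant of the pair in all 8 obstructed libraries, whereas the pair was near balance in normal kidney. That order rests on the length scaling. In raw counts Slc2a2 exceeded Slc2a1 in every normal library and in SMOC2 UUO library 4 (1628 against 1357).

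The widest shift was between the carboxykinases. Pck1 mRNA was 12.3 times as abundant as Pck2 mRNA per kilobase in WT UUO and 451 times in WT normal kidney (log2 3.62 ± 1.2 and 8.82 ± 0.32). In SMOC2 kidney the ratio was 17.6 in UUO and 404 in normal libraries (log2 4.13 ± 1.05 and 8.66 ± 0.22). Single libraries ran from 4.90 to 35.0 in WT UUO and from 360 to 562 in WT normal kidney. Those of SMOC2 kidney ran from 6.70 to 37.2 in UUO and from 346 to 467 in normal kidney. The level of this ratio rests on the exon lengths used, 3429 bases for Pck1 and 7806 for Pck2. Its shift between states does not. For none of the 3 ratios did obstructed and normal libraries of a genotype overlap.

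**Figure D3:**
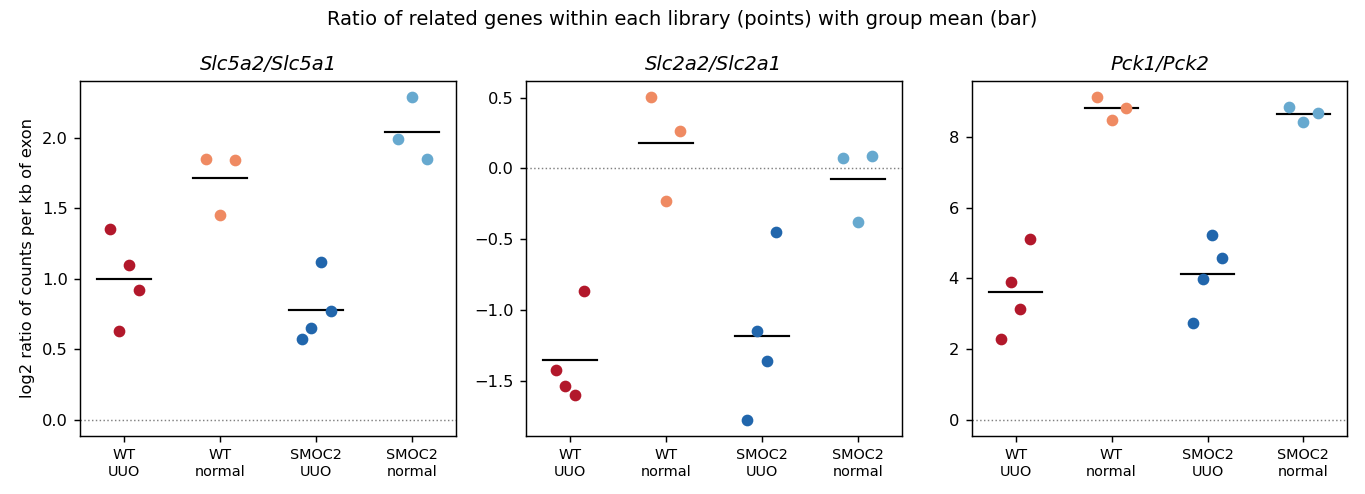
Log2 ratio of counts per kilobase of exon for 3 gene pairs, in each library (points) with the group mean (bar); the dotted line marks equal levels. All UUO points lie below the normal points of their genotype, and the mean Pck1 to Pck2 ratio is 3.62 and 4.13 in UUO, against 8.82 and 8.66 in normal kidney.

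Markers of proximal tubule cells, which take back and make glucose, moved the same way as the genes that fell. All 10 of them (Lrp2, Cubn, Slc34a1, Slc22a6, Slc22a8, Aqp1, Slc13a3, Slc27a2, Slc7a13 and Slc22a7) fell in both genotypes by the edgeR test, with medians of -3.12 in WT and -3.09 in SMOC2 kidney. Their summed level was 1490 to 4196 CPM in WT UUO and 19930 to 22960 CPM in WT normal kidney, and 2997 to 3885 CPM in SMOC2 UUO and 22200 to 27450 CPM in SMOC2 normal kidney. In whole tissue, fewer cells of a type and less RNA per cell cannot be told apart. Summed levels of 5 fibroblast markers were 1945 to 3475 CPM in WT UUO, against 147 to 336 CPM in WT normal kidney, and 2568 to 3613 CPM in SMOC2 UUO, against 119.9 to 236 CPM in SMOC2 normal kidney. Those of 5 macrophage markers were 748 to 836 CPM in WT UUO, against 175 to 212 CPM in WT normal kidney, and 686 to 888 CPM in SMOC2 UUO, against 177 to 240.4 CPM in SMOC2 normal kidney. All 5 loop and distal tubule markers and all 5 collecting duct markers fell in both genotypes, and of 5 endothelial markers 2 fell in WT, while 1 rose and 2 fell in SMOC2 kidney. Markers of hepatocytes, which share the gluconeogenic enzymes, summed to 26.1 to 136 CPM in WT UUO and 252 to 354 CPM in WT normal kidney, and to 83.7 to 109 CPM in SMOC2 UUO and 221.5 to 286 CPM in SMOC2 normal kidney. Most of that sum was Apob, which kidney tubules also express. Of 5 hepatocyte markers tested, 2 fell in WT, while 3 fell and 1, the fibrinogen chain gene Fgb, rose in SMOC2 kidney. Fgb averaged 34.1 ± 11.2 CPM in SMOC2 UUO and 0.0729 ± 0.0786 CPM in SMOC2 normal kidney (edgeR adjusted p = 0.000785). In WT kidney it averaged 8.01 ± 12.6 CPM in UUO and 2.41 ± 2.12 CPM in normal libraries, and it was not called. No hepatocyte marker was called for the difference between the responses of the genotypes. Markers of the small intestine, which also carries SGLT1 and GLUT2, summed to 89.2 to 122 CPM in WT UUO and 253 to 265 CPM in WT normal kidney, and to 118 to 149 CPM in SMOC2 UUO and 257 to 290.4 CPM in SMOC2 normal kidney. Nearly all of that sum was Vil1, a brush border protein that kidney tubules also express and the single one of the 5 that was tested, which fell in both genotypes. Lct and Fabp2 averaged under 1 CPM, and Sis and Cdx2 were at 0, in each group. Erythroid markers summed to 20.8 to 139 CPM in WT UUO and 38.8 to 279 CPM in WT normal kidney. They summed to 27.5 to 96.4 CPM in SMOC2 UUO and 15.0 to 65.1 CPM in SMOC2 normal kidney. None of the erythroid markers was called. Of 4 adipocyte markers tested, 0 were called in WT and 1 rose in SMOC2 kidney. Nearly all of the summed level of the adipocyte markers was Fabp4. Adipoq, Plin1, Cidec and Lep each averaged under 1 CPM in every group. What part these shifts have in the changes of the 10 genes was not tested.

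Set against the proximal tubule markers, the 10 genes divided. G6pc stood at 9.84 ± 1.10 CPM per 1000 CPM of summed markers in WT UUO and 26.3 ± 1.94 in WT normal kidney, and at 6.79 ± 1.06 in SMOC2 UUO and 25.1 ± 4.03 in SMOC2 normal kidney, with no overlap of states. For Pck1 the values were 74.5 ± 18.7 in WT UUO and 205 ± 31.4 in WT normal kidney, again apart, and 99.8 ± 54.7 in SMOC2 UUO and 168 ± 6.88 in SMOC2 normal kidney, where they overlapped. Fbp1 overlapped in WT (50.5 ± 8.92 in UUO and 57.4 ± 5.86 in normal kidney) and was lower in all SMOC2 UUO libraries (37.5 ± 2.51, against 53.6 ± 3.23 in SMOC2 normal kidney). Slc37a4 overlapped in both genotypes. Pcx overlapped in WT and was above normal in SMOC2 UUO, at 29.0 ± 1.19, against 23.8 ± 2.21 in SMOC2 normal kidney. The 4 transporters and Pck2 were above normal in all obstructed libraries of both genotypes on this scale. Slc5a2, for example, was at 39.3 ± 14.8 in WT UUO and 16.4 ± 0.835 in WT normal kidney. These are ratios to a falling sum, given as a description without a test. The mean sum was at 12.9% of normal in WT UUO and 14.2% in SMOC2 UUO, so any gene that fell by less is higher on this scale. The share of all genes that would be higher on it was not counted. These positions are therefore not shown to be particular to the 10 genes.

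Within WT UUO most of the genes shared their highest and lowest library. Library 4 was the highest of its group for 9 of the 10 genes and library 1 the lowest for 8. The proximal tubule sum was likewise lowest in library 1 and highest in library 4, at 1490, 3697, 1549 and 4196 CPM in WT UUO libraries 1 to 4. In SMOC2 UUO, library 1 was the lowest for 8 genes, while the highest was library 3 for 6 genes, library 4 for 3 and library 1 for 1, with proximal tubule sums of 2997, 3440, 3885 and 3780 CPM in libraries 1 to 4. Slc2a1 ran the other way there, highest in library 1 and lowest in library 4, and G6pc was lowest in library 2. In SMOC2 normal kidney library 4 was the highest for 9. Leaving out any single library moved no fold change of the 10 genes after obstruction by more than 1.5 times.

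Between the genotype labels, none of the 10 genes differed in either state. In obstructed kidney (0.831% of all genes called) the largest differences were those of Pck1, at 368 ± 227.5 CPM in SMOC2 UUO and 212 ± 141 CPM in WT UUO (log2 fold change 0.80, 95% interval -0.25 to 1.85, edgeR adjusted p = 0.477), and of Pcx, at 102.5 ± 15.1 CPM in SMOC2 UUO and 67.8 ± 26 CPM in WT UUO (0.60, 0.13 to 1.06, adjusted p = 0.203 by the same test). Both overlapped between genotypes. Pcx and Pck2 were the only 2 of the 10 with an unadjusted p under 0.05. Pck2 was at 39.4 ± 2.55 CPM in SMOC2 UUO and 33.3 ± 5.15 CPM in WT UUO (log2 fold change 0.24, 95% interval 0.02 to 0.46, edgeR adjusted p = 0.276). The intervals of the other genes reached from -0.81, for G6pc, to 0.80, for Slc5a1.

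In normal kidney (0.0279% of all genes called) none of the 10 had an unadjusted p under 0.05. Pcx again stood out in position, at 589 ± 15.9 CPM in SMOC2 normal and 433 ± 74.8 CPM in WT normal kidney, with all 3 SMOC2 libraries above all 3 WT libraries, as were those of 8.84% of all genes. Its log2 fold change was 0.45 (95% interval -0.09 to 0.98, edgeR adjusted p = 0.472). Pck1 was at 4175 ± 440.3 CPM in SMOC2 normal and 4381 ± 996 CPM in WT normal kidney (log2 fold change -0.07, 95% interval -1.27 to 1.13, edgeR adjusted p = 0.973). Intervals this wide do not show that the genotypes are alike.

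The response to obstruction itself did not differ detectably between genotypes for any of the 10 genes (0 of 17926 genes called by edgeR, with 1154 at an unadjusted p under 0.05, and 25 called by DESeq2). Slc5a1, whose fall was to 67.9% in SMOC2 and 44.9% in WT kidney, had the smallest p of the 10 (interaction 0.60 log2 units, 95% interval -0.06 to 1.25, edgeR adjusted p = 0.789). For Pck1 the interaction was 0.87 (95% interval -0.73 to 2.46, edgeR adjusted p = 0.868). Across all alternatives run, DESeq2 among them, 0 of the 10 genes were called in any of these 3 comparisons.

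The genes around the path were counted in 7 lists, beside the medians over all genes of 0.05 in WT and 0.04 in SMOC2 kidney. Of the other SLC2 and SLC5 sugar transporters, 14 of 15 were tested. There 11 fell and 3 rose in each genotype, with medians of -1.70 in WT and -1.91 in SMOC2 kidney. Slc2a12 (log2 fold change -2.38 in WT and -2.57 in SMOC2 kidney) and Slc2a4, the insulin-responsive carrier GLUT4 (-2.37 and -2.35), fell, as did Slc5a9 (-1.91 and -2.27). The 3 that rose, named after their values were seen, were Slc2a6 (3.69 and 3.20), a carrier known from macrophages, Slc2a3 (1.58 and 1.92) and Slc2a10 (2.05 and 1.86).

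Enzymes used by glycolysis and gluconeogenesis alike fell nearly throughout, 14 of 16 in WT and 15 of 16 in SMOC2 kidney, with medians of -1.0 and -0.97. With library totals the counts were 10 and 11 lower. Pgk1, phosphoglycerate kinase, fell by 1.36 and 1.32 on the log2 scale, and Pgam1, phosphoglycerate mutase, by 1.52 and 1.36. Eno2, the enolase named for neurons, was the single riser, at 2.71 and 2.82. Of 13 tested glycolytic enzymes that work against gluconeogenesis, 3 rose and 4 fell in WT, where 31.3% of all genes rose and 29.8% fell. In SMOC2 kidney 5 rose and 4 fell, where 32.5% of all genes rose and 30.4% fell. These counts are near that background, and the medians were 0.20 and 0.01. With library totals 7 rose and 2 fell in WT and 9 rose and 3 fell in SMOC2 kidney. Hexokinases split: Hk2 (3.99 and 4.37) and Hk3 (4.08 and 4.35) rose, and Hk1 (-0.77 and -0.83) fell, as did the phosphofructokinase Pfkm (-1.25 and -1.44).

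Both tested alternatives to the gluconeogenic enzymes, G6pc3 (log2 fold change -0.28 in WT and -0.44 in SMOC2 kidney) and Fbp2 (-0.85 and -0.83), fell, and neither call held with library totals. Of 20 genes that supply precursors, 18 fell in each genotype, with medians of -1.53 and -1.62. Among them were Slc25a10, the mitochondrial dicarboxylate carrier (-2.32 and -2.25), the aspartate aminotransferase Got2 (-1.35 and -1.15), the oxoglutarate carrier Slc25a11 (-1.20 and -1.42) and Tkfc (-2.20 and -1.74), a kinase of the fructose path. Of 5 partners of the cotransporters, 4 fell in WT and all 5 in SMOC2 kidney, with medians of -1.49 and -1.42. Pdzk1ip1, known as the accessory protein MAP17 of SGLT2, fell by 1.33 in WT and 1.4 in SMOC2 kidney, and the sodium pump subunit Atp1b1 (-1.53 and -1.44) fell too.

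Regulators were mixed. Of 19, 13 fell and 2 rose in WT, and 10 fell and 3 rose in SMOC2 kidney, with medians of -0.58 and -0.39. With library totals the counts were 8 lower and 4 higher in WT and 7 lower and 7 higher in SMOC2 kidney. Klf15, a glucocorticoid-induced activator of gluconeogenic genes in liver, fell by 2.79 in WT and 3.54 in SMOC2 kidney. The hepatocyte nuclear factor Hnf4a (-1.98 and -1.68) fell, as did the coactivator Ppargc1a (-1.35 and -1.08). Cebpb, named after its values were seen, went the other way. It averaged 23.4 ± 6.79 CPM in WT UUO and 6.15 ± 1.35 CPM in WT normal kidney. In SMOC2 kidney it averaged 21.0 ± 6.36 CPM in UUO and 8.99 ± 2.6 CPM in normal libraries.

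**Figure D4:**
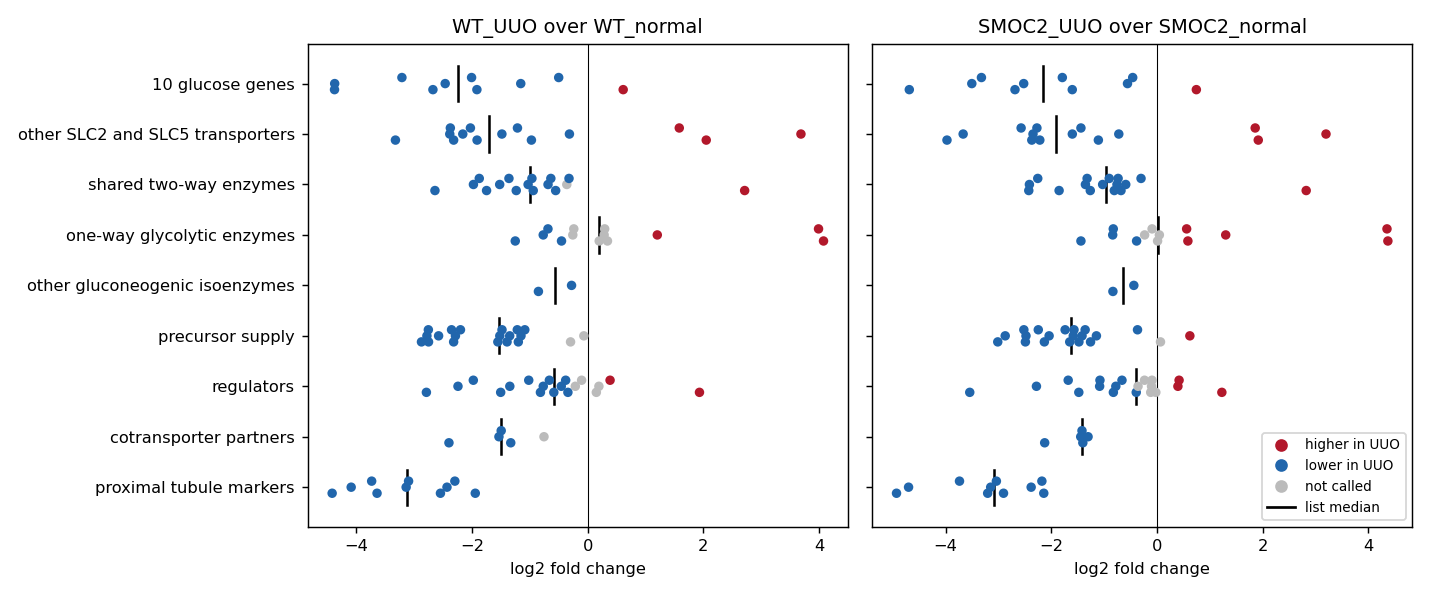
Log2 fold change, UUO over normal, of each gene tested in the 10-gene set, in 7 lists of surrounding genes and among proximal tubule markers, in wild-type (left) and SMOC2-labelled (right) kidney; red points rose, blue fell, grey were not called, and bars are list medians. The 10 genes have medians of -2.23 and -2.16, between those of the markers, -3.12 and -3.09, and those of the shared enzymes, -1.0 and -0.97; with library totals more points of the regulators and glycolytic enzymes lie above 0.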

How the data were processed

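The authors deposited raw counts for each gene, 1 file per library, without normalization. Per the submitters' processing notes, the tools were STAR 2.4.1d and featureCounts 1.4.4 of Subread, with build mm10. Per the labels' protocols, RNA came from frozen kidney, and the kit selected messenger RNA and kept its strand. Neither the annotation nor the strand setting of the counting is given in the sources used here. Of 47729 listed identifiers, 47224 matched GENCODE M21 (GRCm38), which gave symbols, coordinates and exon lengths, and the other 505 held 0.051% of all counts.

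In R 4.3.3, edgeR 4.0.16 kept 17926 genes with filterByExpr, scaled libraries by trimmed mean of M-values (factors of 0.80 to 0.86 in normal and 1.13 to 1.20 in UUO libraries), and fitted group means to all 14 libraries (glmQLFit, glmQLFTest). P-values were adjusted over the tested genes by the Benjamini-Hochberg method. The edgeR test gives no standard error. Each SE printed is the size of the log2 fold change divided by the square root of the test's F statistic. The 95% intervals were built from that SE with quantiles of the t distribution. The steps were tested on simulated data with few changed genes, as many higher as lower. That simulation did not test the scaling between states. Replicate libraries differed beyond sampling noise (chi-square per degree of freedom of at least 18.7 for any pair), and each was counted once. That difference does not show that they came from separate animals.

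The 10 genes and all lists were chosen with earlier results of these data known. All 10 are named throughout. Of each list of surrounding genes, up to 4 with the smallest p for UUO against normal in WT kidney may be named, and exceptions are marked. Alternatives were median-ratio, upper-quartile and total-count scaling, no filter, at least 50 counts in 3 libraries, DESeq2 1.42.0, a replicate block, a fit of only the libraries compared, and leaving out single libraries. Total-count scaling was added after the scaling factors of the states were seen to differ. Some listed genes are not reported here by name.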

Additional observations from a re-analysis of the deposited data

How the results depend on the processing

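Of the 10 genes, 9 or 10 were called after obstruction in WT kidney and 8 to 10 in SMOC2 kidney over all alternatives, with Pck2 the single riser in each. Only the calls of Slc2a1, and of Slc5a1 in SMOC2 kidney, were lost, and the difference of Slc2a1 in SMOC2 kidney turned to 0.0419 with total-count scaling, which was chosen after seeing the data. None of the 10 was called between genotypes under any alternative. For all genes, the count for SMOC2 normal against WT normal was 5, and it was 8 with total-count scaling, 12 with no filter, 174 with DESeq2, 8 with only the groups compared, and 4 to 21 with single libraries left out, the highest without SMOC2 normal library 1. The count for SMOC2 UUO against WT UUO was 149, and it was 746 with DESeq2, 39 with only the groups compared, and 29 to 158 with single libraries left out: 71, 29 and 45 without SMOC2 UUO libraries 1, 2 and 3, and 64, 70 and 63 without WT UUO libraries 1, 3 and 4. The interaction count of 0 was 1 with no filter, 25 with DESeq2, and 0 to 2 with single libraries left out. The causes were not tested. The labels give replicate numbers, and same-numbered libraries deviated together weakly if at all. Over 12 such pairs the correlation ran from -0.09 to 0.17, over 0.1 in 3, and over pairs of different number from -0.178 to 0.163. Between SMOC2 UUO and WT UUO, the pairs numbered 3 (0.173) and 4 (0.125) exceeded the highest pair of different number (0.0886). With the replicate block the count was 69 for SMOC2 UUO against WT UUO and 1 for the interaction, and the block changed no call of the 10 genes. Small differences that no test called changed sign under the block: for SMOC2 normal against WT normal, Slc5a2 was at -0.0535, G6pc at -0.031 and Slc37a4 at -0.0658, and the interaction of Fbp1 was at 0.0591. With single libraries left out, uncalled log2 differences also crossed 0. For SMOC2 normal against WT normal these were Slc2a1 (-0.0219 to 0.108) and Pck1 (-0.211 to 0.118). For SMOC2 UUO against WT UUO they were Slc2a1 (-0.0379 to 0.213), G6pc (-0.37 to 0.23), Fbp1 (-0.15 to 0.35) and Slc37a4 (-0.27 to 0.13). For the interaction they were Slc2a1 (-0.0841 to 0.166), G6pc (-0.528 to 0.0667), Fbp1 (-0.28 to 0.22) and Slc37a4 (-0.369 to 0.0258). The levels of 11 of the 12 mean log2 ratios of related genes moved without length scaling, by the same amount in both states.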

Other observations

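The 3 genes in this paragraph come from the lists of other sugar transporters and of precursor supply, and were chosen from them after their values were seen. Slc2a5, the fructose carrier GLUT5, averaged 22.1 ± 13.9 CPM in WT UUO (SD, n = 4) and 220 ± 48.3 CPM in WT normal kidney (SD, n = 3), and 15.3 ± 4.74 CPM in SMOC2 UUO and 240.4 ± 25.4 CPM in SMOC2 normal kidney. Its log2 fold change was -3.32 in WT and -3.98 in SMOC2 kidney (edgeR adjusted p = 7.32e-06 and 1.6e-06), and no UUO library reached a normal one. Ketohexokinase, Khk (-2.78 and -3.01), and sorbitol dehydrogenase, Sord (-2.87 and -2.87), fell too, with edgeR adjusted p of at most 1.33e-06.

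Slc16a1, the lactate carrier MCT1, was also named after its values were seen. It was the single gene of the precursor list to be called higher after obstruction, and that in SMOC2 kidney. It averaged 34.0 ± 2.98 CPM in SMOC2 UUO and 22.1 ± 0.833 CPM in SMOC2 normal kidney (log2 fold change 0.62, edgeR adjusted p = 0.0038), and 37.6 ± 3.42 CPM in WT UUO and 46.1 ± 14 CPM in WT normal kidney (-0.30, edgeR adjusted p = 0.114). The difference between these responses was not called (interaction 0.92, edgeR adjusted p = 0.506). In normal kidney the SMOC2 mean was below the WT mean, a difference that was not called either (log2 fold change -1.06, edgeR adjusted p = 0.0568).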
